A study of Homo sapiens with 11 samples.

Results

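The interferon-stimulated effector genes examined here are 51 genes whose products limit viral growth or adjust the response to interferon. They were chosen by name, as a list of gene symbols, and all 51 were found among the 28252 genes of the RT4 RNA-Seq files and among the 26237 gene promoters of the BEAS-2B H3K4me3 files. The list was drawn up with RT4 results already known, so the RT4 values are given as a description of these genes and not as independent evidence about the list.

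RT4 is a human urinary bladder cancer cell line, and BEAS-2B is an immortalized human lung epithelial cell line. RT4 cells were untreated (UT), cultured for 6 weeks with 100 μM NiCl2 (Ni-E), or cultured in this way and then for another 2 weeks after nickel was removed (Ni-W), with 2 RNA-Seq libraries each. BEAS-2B UT cells were untreated, and BEAS-2B Ni-E cells had the same dose and duration of nickel as RT4 Ni-E cells. BEAS-2B Ni-W cells were, by the methods, a population grown from a colony of a single nickel-exposed cell and kept without nickel for more than 6 months, so that this library stands for 1 clone. The labels name 2 weeks for both lines as well as more than 6 months for the BEAS-2B population examined, and the longer time is taken here. H3K4me3, a histone mark found at the start sites of active genes, was measured with 1 library in each of the 3 BEAS-2B conditions. The study asked whether changes that nickel causes stay, vanish or first appear once nickel is removed.

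The RT4 libraries held 17075833 to 27736454 estimated counts, and in each group replicate 2 was deeper than replicate 1. As to the identity of the cells, 6 of 6 epithelial markers and 9 of 10 urothelial markers were at 1 TPM (a level scaled for transcript length and depth) or more in every RT4 library, and KRT20, the tenth, was at 11.1 and 11.3 TPM in UT, 0.25 and 0.11 in Ni-E and 1.59 and 1.37 in Ni-W. The summed urothelial markers were 1741 to 1805 TPM in UT, 1464 to 1470 in Ni-E and 1783 to 1814 in Ni-W. The sum joins opposite changes. Both Ni-E libraries were below both UT libraries for UPK1A, UPK1B, UPK2, UPK3A, FOXA1 and KRT20. They were above both for UPK3B, PPARG and ELF3, and GATA3 overlapped. UPK2 was at 285 and 402 TPM in UT and 96.2 and 128 in Ni-E, and UPK3B at 293 and 313 in UT and 391 and 406 in Ni-E. Of 5 immune markers, 4 were under 1 TPM in every library, with CD3E at 0, and the fifth, CD68, set the sum of 7.58 to 8.14 TPM in UT, 10.9 to 13.5 in Ni-E and 13.6 to 13.7 in Ni-W. None of 5 fibroblast and 3 endothelial markers reached 1 TPM in every library. The fibroblast marker COL3A1 was at 0.84 and 0.26 TPM in UT, 4.13 and 2.18 in Ni-E and 4.55 and 1.48 in Ni-W, while COL1A2 and DCN were at 0, and the part of these markers in the results was not tested. In BEAS-2B, the promoters of KRT7, KRT8 and KRT18 had 4.38 to 8.27 RPKM (reads scaled for window length and depth) of H3K4me3, while KRT19 and CDH1 had 0.432 to 1.02.

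Interferons bind receptors at the cell surface, and the kinases behind these receptors phosphorylate STAT proteins. With IRF9 the STAT proteins form a complex that binds the interferon-stimulated response element (ISRE), and without IRF9 they bind the gamma-activated site (GAS). The genes switched on in this way act at each step of infection. IFITM proteins hinder entry, IFIT and OAS proteins recognize or help to destroy foreign RNA, MX proteins trap viral components, BST2 tethers budding particles, and ISG15 is a small protein that is attached to other proteins. Epithelial cells of airway and bladder carry the receptors for type I interferon and can express these genes without immune cells.

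Promoter sequence was not used directly in the choice by name. The genes were, however, listed as interferon-stimulated, and interferon acts through the ISRE. Their share of ISRE matches is therefore not independent of the choice. RefSeq promoters (GRCh38.p14, 250 bases before to 50 bases after the start) were found for 42 of the 51 genes, with 57 promoters in all, and not for IFIT2, IFITM2, OAS2, OASL, MX2, TRIM22, GBP2, USP18 and IDO1. The ISRE core was searched as GAAA, NN and GAAA in a row, where N is any base, and the GAS core as TTCNNNGAA, on both strands. The promoters of 31 of the 42 genes (73.8%) held the ISRE core, against 4.38% of the 27305 gene symbols with a promoter in the table. The GAS core was in 12 of the 42 (28.6%), against 9.38% of all symbols. Of the 57 ISRE matches, 53 began within 200 bases upstream of the start, and the median match began 74 bases upstream (position -74). Matches were counted in each promoter, so that a site near alternative starts of a gene counts for each start. Matches of the 2 cores overlapped in 6 promoters. These are matches of letters and not sites of measured binding.

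The promoters of genes with ISRE matches and that of TRIM25, which had none, are printed to show the sequence upstream of genes with very different fitted changes in RT4 cells, ISG15 and TRIM25 among them without a call. Each runs from 250 bases upstream up to the transcription start, 5′ to 3′ on the strand of the gene, and capitals mark the ISRE core in either orientation.
IFI6 (chr1:27672193-27672442, minus strand): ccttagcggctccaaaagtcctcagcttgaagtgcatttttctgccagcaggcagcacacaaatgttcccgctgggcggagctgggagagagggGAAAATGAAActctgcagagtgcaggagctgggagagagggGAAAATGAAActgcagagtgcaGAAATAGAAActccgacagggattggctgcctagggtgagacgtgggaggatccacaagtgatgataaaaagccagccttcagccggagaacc
IFI27 (chr14:94110486-94110735, plus strand): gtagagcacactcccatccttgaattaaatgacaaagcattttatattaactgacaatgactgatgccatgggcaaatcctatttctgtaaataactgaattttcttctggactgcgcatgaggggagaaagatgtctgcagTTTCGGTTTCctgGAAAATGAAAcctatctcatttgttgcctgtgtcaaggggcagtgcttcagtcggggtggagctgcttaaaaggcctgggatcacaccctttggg
IFIT1 (chr10:89392373-89392622, plus strand): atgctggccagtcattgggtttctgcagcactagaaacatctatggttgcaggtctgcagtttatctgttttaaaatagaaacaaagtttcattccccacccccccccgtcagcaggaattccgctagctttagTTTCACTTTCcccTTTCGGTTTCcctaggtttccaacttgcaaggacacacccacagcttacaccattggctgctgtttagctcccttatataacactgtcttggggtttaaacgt
ISG15 (chr1:1013247-1013496, plus strand): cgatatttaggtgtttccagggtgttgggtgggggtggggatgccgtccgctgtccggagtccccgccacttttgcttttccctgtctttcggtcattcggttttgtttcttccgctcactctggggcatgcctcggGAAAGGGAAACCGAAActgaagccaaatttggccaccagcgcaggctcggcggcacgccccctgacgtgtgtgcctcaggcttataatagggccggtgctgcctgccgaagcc
BST2 (chr19:17405631-17405880, minus strand): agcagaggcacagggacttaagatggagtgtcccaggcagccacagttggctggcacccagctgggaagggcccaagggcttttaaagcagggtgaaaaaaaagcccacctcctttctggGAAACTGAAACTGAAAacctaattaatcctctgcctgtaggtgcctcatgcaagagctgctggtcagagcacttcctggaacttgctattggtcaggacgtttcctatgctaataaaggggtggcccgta
TRIM25 (chr17:56914050-56914299, minus strand): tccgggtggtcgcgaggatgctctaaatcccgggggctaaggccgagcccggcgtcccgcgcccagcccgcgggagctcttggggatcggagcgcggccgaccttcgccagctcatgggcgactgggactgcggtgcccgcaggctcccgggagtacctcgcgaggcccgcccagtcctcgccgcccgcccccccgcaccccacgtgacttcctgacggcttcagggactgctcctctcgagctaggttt
The IFI6 promoter held 3 copies of the core, beginning at positions -156, -115 and -93. In IFI27, copies in opposite orientation began at -108 and -95, and in IFIT1 both copies lay on the other strand, at -116 and -103. ISG15 and BST2 each held 2 copies that overlapped, so that their capitals form a single run.

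Shorter windows of 30 bases around the core are shown for other genes of the list, since they let the copies be compared.
IFI44L (chr1:78620274-78620303, plus strand): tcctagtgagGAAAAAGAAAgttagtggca
IFI44 (chr1:78649761-78649790, plus strand): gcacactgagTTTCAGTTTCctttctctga
IFITM1 (chr11:313990-314019, plus strand): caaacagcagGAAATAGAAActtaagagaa
RSAD2 (chr2:6877622-6877651, plus strand): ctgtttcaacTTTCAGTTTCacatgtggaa
PLSCR1 (chr3:146544667-146544696, minus strand): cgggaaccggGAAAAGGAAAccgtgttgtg
EPSTI1 (chr13:42992272-42992301, minus strand): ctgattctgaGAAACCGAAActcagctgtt
LGALS3BP (chr17:78979962-78979991, minus strand): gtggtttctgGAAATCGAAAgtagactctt
PARP9 (chr3:122564322-122564351, minus strand): gggcgcaaagTTTCAGTTTCgcttccctgg
DTX3L (chr3:122564322-122564351, plus strand): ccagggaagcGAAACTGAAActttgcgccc
The PARP9 and DTX3L windows are the same bases read on opposite strands. These genes lie head to head, and PARP9 binds the ubiquitin ligase encoded by DTX3L. LGALS3BP and IFI44L both held the core, while their RT4 values, given below, differ widely. Among the genes with a promoter, 13 of 15 that were called in RT4 and 18 of 27 that were not held the ISRE core. At least 2 ISRE matches in 1 promoter were found in 16 genes.

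**Figure D1:**
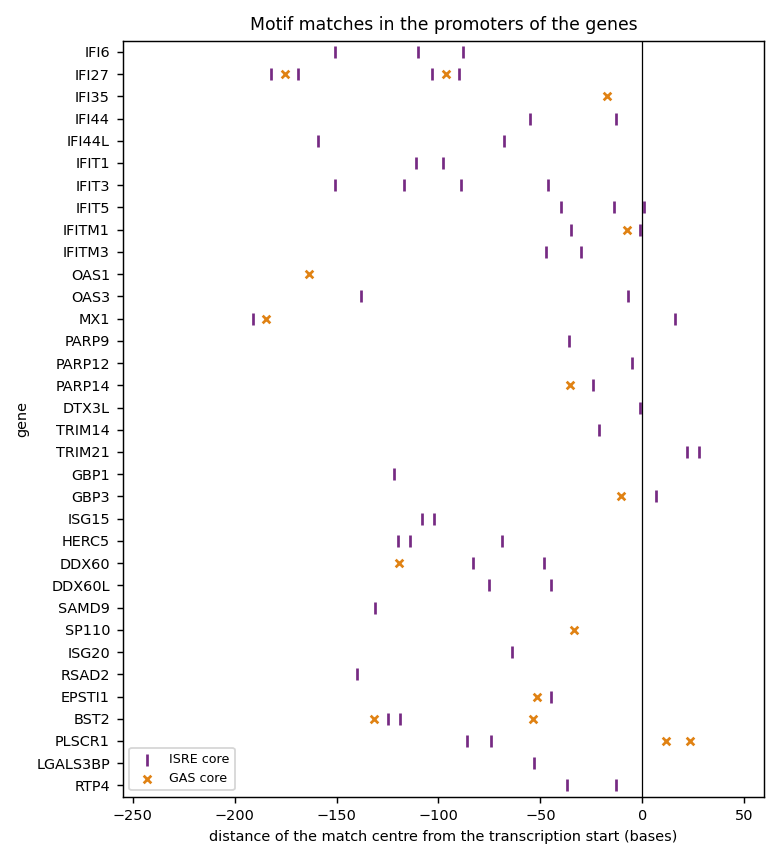
Distance in bases of each ISRE core (bars) and GAS core (crosses) from the transcription start (vertical line at 0) for the 34 genes with a match of either, all promoters of a gene drawn in 1 row. Most ISRE matches, 53 of 57, began in the 200 bases upstream of the start.

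By their median and their sum, the effector genes were higher in Ni-E than in UT RT4 cells, and higher again in Ni-W cells. The median level over the 51 genes was 10.8 TPM in UT, 21.4 in Ni-E and 42.5 in Ni-W cells, with both libraries of a group averaged. Their summed level was 1665 to 1750 TPM in UT, 2818 to 2867 in Ni-E and 4510 to 4665 in Ni-W. The number of genes under 1 TPM went from 8 in UT to 2 in Ni-E and 1 in Ni-W, and the number at 100 TPM or more from 2 to 8 and 11. In RNA from whole cultures, more cells that express a gene and more RNA per cell cannot be told apart.

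**Figure D2:**
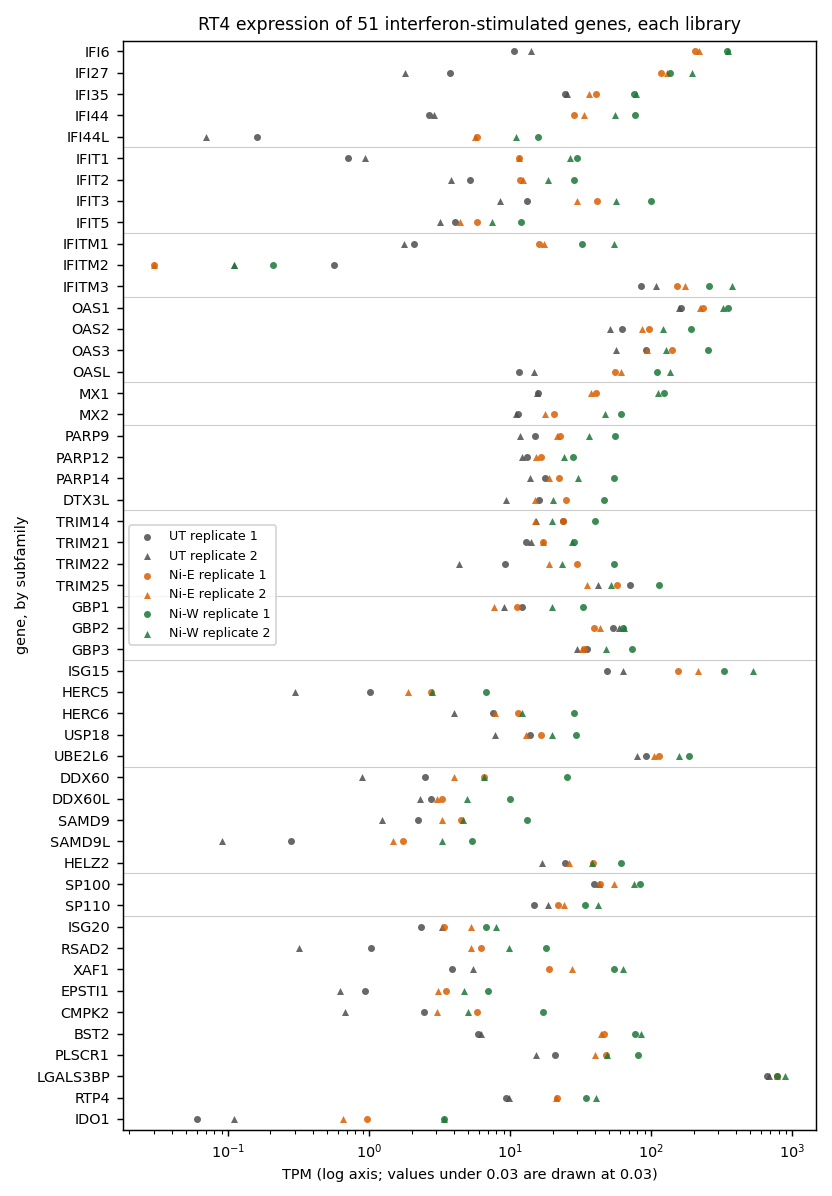
TPM (log axis) of the 51 genes in each of the 6 RT4 libraries, by subfamily. Colours mark UT, Ni-E and Ni-W, circles replicate 1 and triangles replicate 2. Ni-W libraries lie furthest to the right for most genes, with a median of 42.5 TPM over the 51 genes against 10.8 in UT.

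In Ni-E compared to UT cells, 16 of the 50 genes tested were called higher (at least 1.5-fold and adjusted p below 0.05 over all 14502 genes, edgeR) and 0 lower. Over all genes, 1.45% were called higher and 0.71% lower. The median log2 fold change of the 50 genes was 0.78, against -0.01 for all genes, and the fitted change was above 0 for 46, against 48.4% of all genes. At an unadjusted p below 0.05, 29 were higher, against 7.19%. On the normalized counts of the test, which set all counts of this kind, both Ni-E libraries exceeded both UT libraries for 42 genes, against 20.3% of all genes. With the libraries compared within replicate number, 47 genes were higher in replicate 1 and 46 in replicate 2, against 7269 and 7082 of the 14502 genes. With 1 UT or Ni-E library left out, a group holds 1 library, so only the change is given. The median log2 fold change of the 50 genes was then 0.91 to 0.96.

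In Ni-W compared to UT cells, 19 of 50 genes were called higher and 0 lower, against 0.503% and 0.0965% of all genes. The median log2 fold change was 1.76, against 0.00 for all genes, and the fitted change was above 0 for 50 of 50 genes, against 50.1% of all genes. Both Ni-W libraries exceeded both UT libraries for 47 genes, against 15.1% of all genes. Within each replicate number 50 of 50 were higher, against 7294 (replicate 1) and 6784 (replicate 2) of the 14502 genes. At an unadjusted p below 0.05, 46 were higher, against 5.99%. DESeq2 called 44 of the 50 higher, against 342 of the 14502 genes. For fits with 1 library left out, where a group holds 1 library, only the median change is given, further below.

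In Ni-W compared to Ni-E cells, 0 of the 50 genes and 0.0% of all genes were called by edgeR without a replicate block. The smallest adjusted p among the 50 was 0.156 (edgeR), for MX2. With a replicate block the count was 40, and its count over all genes in this contrast is not given here. In Ni-E vs UT the block raised the calls over all genes to 1833, from 314 without it. The limits of the replicate numbers are given further below. At an unadjusted p below 0.05, 35 of the 50 were higher, against 3.25% of all genes. DESeq2 called 8 of the 50 higher, against 89 of the 14502 genes. The fitted change was above 0 for 50 of 50 genes, against 53.4% of all genes, with a median of 0.87 and a range from 0.08 for LGALS3BP to 2.06 for IDO1. Both Ni-W libraries exceeded both Ni-E libraries for 44 genes, against 12.7% of all genes. Within replicate 1, 49 of the 50 genes were higher in Ni-W than in Ni-E, and within replicate 2, 50 were. Of the 14502 genes, 7259 and 7142 were. Since the 3 contrasts share libraries, these counts are not independent of each other.

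**Figure D3:**
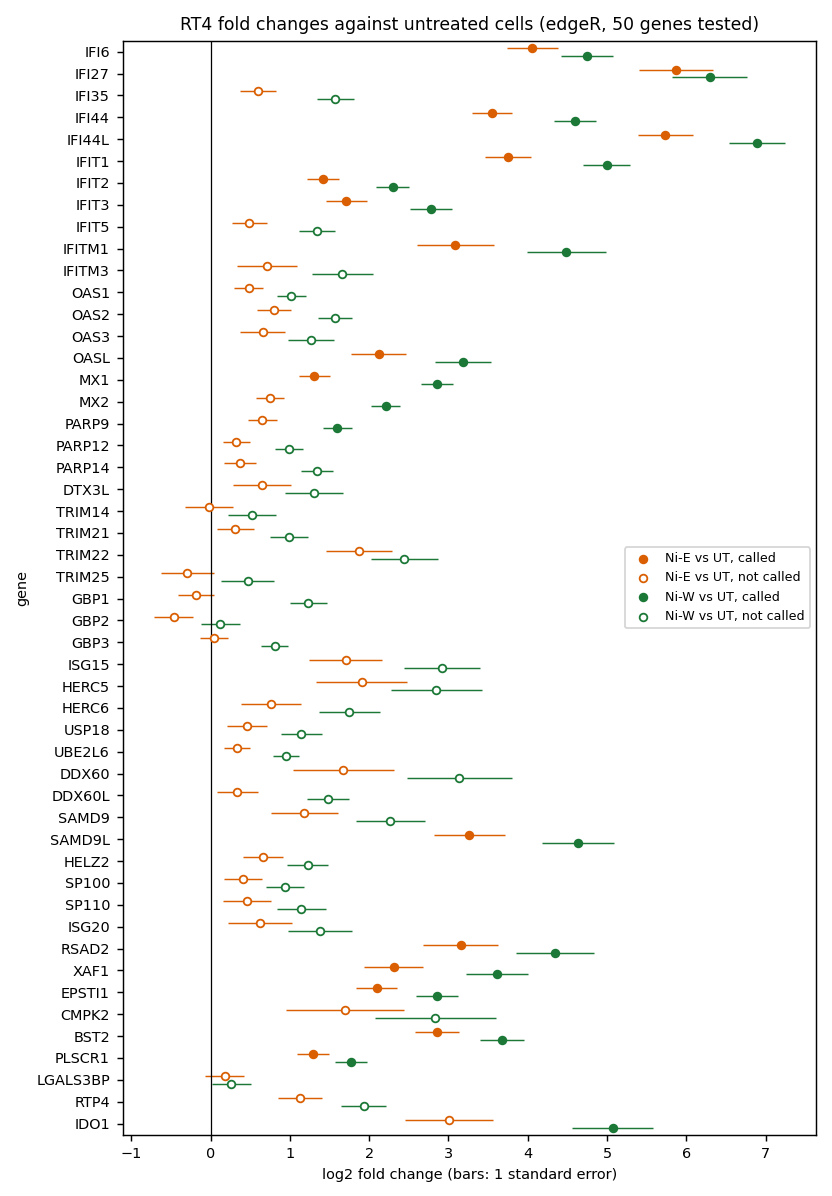
Fitted log2 fold change with 1 standard error of the 50 genes tested, for Ni-E vs UT and Ni-W vs UT RT4 cells. Filled points were called (16 and 19 genes) and open points were not. GBP1, GBP2, TRIM14 and TRIM25 lie below 0 for Ni-E vs UT.

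The IFI genes, named only for their induction by interferon, had the largest median changes of the subfamilies in both contrasts with UT. IFI6, a mitochondrial and endoplasmic reticulum protein that opposes apoptosis and flavivirus replication, was at 10.6 and 14.00 TPM in UT, 204 and 219 in Ni-E and 347 and 349 in Ni-W cells. The groups did not overlap, and IFI6 moved from rank 24 among the 51 genes by mean TPM in UT to rank 3 in Ni-E and Ni-W. Its log2 fold change was 4.05 ± 0.32 (SE) for Ni-E vs UT (adjusted p = 0.0093) and 4.74 ± 0.33 for Ni-W vs UT (adjusted p = 0.013). IFI27, a small hydrophobic protein of mitochondria and nuclear envelope, was at 3.74 and 1.79 TPM in UT, 118 and 129 in Ni-E and 137 and 194 in Ni-W. Both nickel groups were far above UT, with log2 fold changes of 5.87 ± 0.46 and 6.29 ± 0.47. In TPM, the Ni-E and Ni-W libraries of IFI27 did not overlap, but on the normalized counts of the test they did.

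IFI44 and IFI44L are related genes next to each other on chromosome 1. IFI44L was at 0.16 and 0.07 TPM in UT, 5.87 and 5.63 in Ni-E and 15.7 and 11.1 in Ni-W cells. Its log2 fold change of 6.89 ± 0.35 for Ni-W vs UT, or 119-fold, was the largest of the 50 genes and rests on 9 and 6 counts in the UT libraries. IFI44 was at 2.65 and 2.88 TPM in UT, 28.5 and 33.4 in Ni-E and 77.1 and 55.2 in Ni-W, again without overlap, and rose 11.7-fold in Ni-E and 24.2-fold in Ni-W. IFI35, which binds the partner protein NMI, was not called. Its values were 24.6 and 25.5 TPM in UT, 41.0 and 36.4 in Ni-E and 75.4 and 78.2 in Ni-W, with an adjusted p of 0.372 and 0.066 against UT by edgeR. In the subfamily as a whole, 4 of 5 genes were called in each contrast with UT, and the summed level went from 41.7 to 44.3 TPM in UT to 397 to 424 in Ni-E and 651 to 688 in Ni-W.

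The IFIT genes encode RNA-binding proteins that act on viral RNA lacking the marks of host mRNA. IFIT1 was at 0.71 and 0.94 TPM in UT, 11.5 and 11.5 in Ni-E and 29.6 and 26.5 in Ni-W cells. It rose 13.5-fold in Ni-E and 31.9-fold in Ni-W cells relative to UT, with log2 fold changes of 3.75 ± 0.28 and 4.99 ± 0.30. IFIT3 was at 13.2 and 8.47 TPM in UT, 41.0 and 29.8 in Ni-E and 100.0 and 56.1 in Ni-W, and IFIT2 was at 5.21 and 3.84, 11.7 and 12.3, and 28.2 and 18.4 TPM. For all 3 the groups stood apart, and both IFIT2 (log2 1.42 ± 0.20 and 2.30 ± 0.21) and IFIT3 (1.71 ± 0.26 and 2.78 ± 0.27) were called in both contrasts with UT. IFIT5 had fitted changes of 0.49 and 1.34 that were not called.

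The IFITM genes encode membrane proteins that hinder fusion of enveloped viruses. Their sequences are nearly identical, so that reads from 1 copy can be lost or assigned to another, and the division among them is uncertain. Fractional estimated counts were found for 0 of the 51 genes. IFITM1 was at 2.09 and 1.76 TPM in UT, 15.9 and 17.3 in Ni-E and 32.1 and 54.5 in Ni-W cells, on 10 and 14 counts in UT. It was called in both contrasts with UT, with log2 fold changes of 3.08 ± 0.49 and 4.49 ± 0.50. IFITM3 was the third highest gene in UT, at 84.9 and 108.8 TPM, with 152 and 174 in Ni-E and 257 and 372 in Ni-W. The 3 groups did not overlap, but IFITM3 was not called (adjusted p = 0.612 and 0.182 against UT, edgeR). IFITM2 had 0 to 3 counts in each library and gave no fold change.

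The OAS genes make 2′-5′ oligoadenylates, which activate the nuclease RNase L, except for OASL, which lacks this activity. OASL was at 11.7 and 14.9 TPM in UT, 55.3 and 61.4 in Ni-E and 110 and 136 in Ni-W cells. It was the only one of the 4 called in either contrast, with log2 fold changes of 2.12 ± 0.34 (adjusted p = 0.046, the called gene nearest the threshold) and 3.18 ± 0.36. OAS1, OAS2 and OAS3 were already abundant in UT cells, at 51.5 to 162 TPM. Their fitted changes were 0.48 to 0.80 for Ni-E vs UT and 1.02 to 1.57 for Ni-W vs UT, and both libraries of each nickel group exceeded both of UT for all 4 genes. OAS2 lay just outside the threshold for Ni-W vs UT (adjusted p = 0.054), and PARP9 just inside it (0.034).

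MX1 and MX2 encode dynamin-like GTPases that bind viral nucleoproteins and capsids. MX1 was at 15.7 and 15.6 TPM in UT, 40.8 and 37.6 in Ni-E and 123 and 112 in Ni-W cells, so that replicates differed little next to the gap between groups. It was called in both contrasts with UT (log2 1.31 ± 0.19 and 2.85 ± 0.20). MX2 was at 11.3 and 10.98 TPM in UT, 20.3 and 17.6 in Ni-E and 61.2 and 46.7 in Ni-W. MX2 was called for Ni-W vs UT (log2 2.21 ± 0.18, adjusted p = 0.014) and not for Ni-E vs UT (0.75 ± 0.17, adjusted p = 0.118). The step from Ni-E to Ni-W was 1.54 ± 0.19 for MX1 and 1.46 ± 0.18 for MX2, among the larger ones of the 50 genes, and was not called (adjusted p = 0.161 and 0.156, edgeR).

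BST2, RSAD2 and PLSCR1 act at membranes. BST2, or tetherin, was at 5.95 and 6.22 TPM in UT, 46.0 and 44.3 in Ni-E and 76.5 and 84.3 in Ni-W cells, a rise of 7.25-fold and 12.8-fold against UT. RSAD2, or viperin, a radical SAM enzyme that makes a chain-terminating nucleotide, was at 1.04 and 0.32 TPM in UT, 6.24 and 5.24 in Ni-E and 17.9 and 9.78 in Ni-W. PLSCR1, a phospholipid scramblase that restricts viral entry, was at 20.9 and 15.3, 48.0 and 40.2, and 80.3 and 49.0 TPM. The groups did not overlap for these genes, and all 3 were called in both contrasts with UT, with log2 fold changes for Ni-W vs UT of 3.68 ± 0.28, 4.34 ± 0.49 and 1.77 ± 0.20. CMPK2, a nucleotide kinase whose start site lies 750 bases from that of RSAD2, was at 2.47 and 0.67 TPM in UT, 5.79 and 3.01 in Ni-E and 17.0 and 5.07 in Ni-W. Its replicates lay far apart, Ni-E and Ni-W overlapped, and it was not called (adjusted p = 0.469 and 0.245 against UT, edgeR).

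The ISG15 system as listed here holds the modifier ISG15, the conjugating enzyme UBE2L6, the ligase HERC5, the related gene HERC6 and the protease USP18, which removes ISG15. ISG15 was at 48.5 and 62.8 TPM in UT, 154 and 217 in Ni-E and 327 and 531 in Ni-W cells, and it went from rank 9 of the 51 genes in UT to rank 2 in Ni-W. The groups did not overlap, but replicate 2 was the higher one in each, and the fitted changes of 1.70 ± 0.46 and 2.92 ± 0.48 were not called (adjusted p = 0.168 and 0.078, edgeR). None of the other 4 genes was called. Their fitted changes ran from 0.34 for UBE2L6 to 1.90 for HERC5 for Ni-E vs UT and from 0.95 to 2.85 for the same genes for Ni-W vs UT, and on the normalized counts of the test all 5 genes were without overlap in each contrast. In TPM, USP18 overlapped between UT (13.8 and 7.76) and Ni-E (16.5 and 12.9).

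PARP9, an ADP-ribosyltransferase that works with DTX3L, was at 15.0 and 11.7 TPM in UT, 22.6 and 21.7 in Ni-E and 55.3 and 36.2 in Ni-W cells. Of the 4 genes of this subfamily, PARP9 was called for Ni-W vs UT (log2 1.60 ± 0.18) and none for Ni-E vs UT. DTX3L, PARP12 and PARP14 had fitted changes of 0.33 to 0.65 for Ni-E vs UT and 0.99 to 1.34 for Ni-W vs UT. The replicates of DTX3L were further apart than those of PARP9, at 16.1 and 9.32, 24.8 and 15.0, and 46.5 and 20.3 TPM.

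The TRIM and GBP genes had the smallest median changes in Ni-E cells, and 0 of these 7 genes were called in any contrast. TRIM25, the ubiquitin ligase that modifies the RNA sensor RIG-I, was at 70.9 and 42.0 TPM in UT, 57.1 and 34.9 in Ni-E and 113 and 52.3 in Ni-W cells. All 3 groups overlapped in TPM. Its fitted change was -0.29 ± 0.33 for Ni-E vs UT and 0.47 ± 0.33 for Ni-W vs UT. The exception in size was TRIM22, at 9.15 and 4.35 TPM in UT, 29.9 and 18.9 in Ni-E and 54.1 and 23.2 in Ni-W, whose fitted changes of 1.87 ± 0.41 and 2.44 ± 0.42 had adjusted p-values of 0.104 and 0.089 (edgeR).

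GBP1, GBP2 and GBP3 are GTPases that coat pathogen vacuoles and are induced above all by interferon gamma. GBP2 was at 53.7 and 59.1 TPM in UT, 39.2 and 43.3 in Ni-E and 62.8 and 64.4 in Ni-W cells. Both Ni-E libraries were below both UT libraries, with a fitted change of -0.47 ± 0.24 that was not called (adjusted p = 0.592). GBP1 was at 12.1 and 9.10 TPM in UT, 11.1 and 7.68 in Ni-E and 32.7 and 19.8 in Ni-W. For GBP1, UT and Ni-E overlapped while both Ni-W libraries were higher than the other 4, with a fitted change of 1.23 ± 0.23 against UT (adjusted p = 0.109, edgeR). The subfamily sum was 97.7 to 101 TPM in UT, 83.6 to 83.9 in Ni-E and 132 to 168 in Ni-W. For Ni-E vs UT the medians of the subfamilies ran from -0.18 for GBP and 0.15 for TRIM to 1.90 for IFITM, with 2 genes tested, and 4.05 for IFI.

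Of the helicase-like genes and the SAMD9 pair, SAMD9L was called in both contrasts with UT. SAMD9L, which represses translation and restricts poxviruses, was at 0.28 and 0.09 TPM in UT, 1.73 and 1.49 in Ni-E and 5.34 and 3.31 in Ni-W cells, on 17 and 9 counts in UT. Its log2 fold changes were 3.26 ± 0.45 and 4.63 ± 0.46. DDX60, a helicase-like protein that aids RNA sensing, was at 2.50 and 0.89 TPM in UT, 6.54 and 3.99 in Ni-E and 25.2 and 6.58 in Ni-W. The fitted change of DDX60 for Ni-W vs UT, 3.14 ± 0.66, was as large as that of OASL but with a larger error, and it was not called (adjusted p = 0.144, edgeR). SP100 and SP110, nuclear body proteins, were not called. SP100 was at 39.4 and 42.4 TPM in UT, 43.5 and 54.5 in Ni-E and 83.97 and 75.6 in Ni-W.

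XAF1, EPSTI1 and IDO1 complete the called genes. XAF1, which antagonizes the inhibitor of apoptosis XIAP, was at 3.86 and 5.45 TPM in UT, 18.9 and 27.3 in Ni-E and 54.5 and 62.9 in Ni-W cells. EPSTI1 was at 0.94 and 0.62, 3.49 and 3.06, and 6.92 and 4.72 TPM. Both had no overlap between groups, with log2 fold changes for Ni-W vs UT of 3.61 ± 0.39 and 2.86 ± 0.26. IDO1, the first enzyme of tryptophan breakdown along the kynurenine pathway, was at 0.06 and 0.11 TPM in UT, 0.97 and 0.65 in Ni-E and 3.38 and 3.39 in Ni-W. With 1 and 3 counts in UT, the ratio of its summed counts per depth was 8.22 (95% counting interval 2.93 to 31.9) for Ni-E vs UT and 36.1 (13.8 to 134) for Ni-W vs UT. IDO1 was called for Ni-W vs UT (adjusted p = 0.025) and lay just outside the threshold for Ni-E vs UT (0.062).

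LGALS3BP, a secreted glycoprotein, was the most abundant of the 51 genes in every group. It was at 667 and 688 TPM in UT, 775 and 776 in Ni-E and 776 and 887 in Ni-W cells, with fitted changes of 0.18 ± 0.25 and 0.26 ± 0.25 against UT. For the 15 genes tested that were under 3 TPM in UT, the median log2 fold change was 3.01 in Ni-E and 4.34 in Ni-W. For the 22 genes from 3 to 20 TPM it was 0.76 and 1.76, and for the 13 genes at 20 TPM or more 0.48 and 1.02. The UT libraries enter both the level and the change, so this order is a description only.

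The replicates differed with transcript length in each group. Over the 50 genes, the mean log2 ratio of replicate 1 to replicate 2 and the length in the files had a Spearman rho of 0.63, and over 14383 genes 0.55. Genes share libraries and are not independent replicates, so these are descriptions. The 16 genes under 2000 bases had a median ratio of -0.31 and the 14 genes of at least 4000 bases one of 0.45. ISG15, of 636 bases, was higher in replicate 2 in all 3 groups, with log2 ratios of -0.65, -0.65 and -1.08. DDX60, of 6015 bases, was higher in replicate 1 in all 3, with 1.23, 0.55 and 1.54. The part of this difference in the spread used by the test was not tested.

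**Figure D4:**
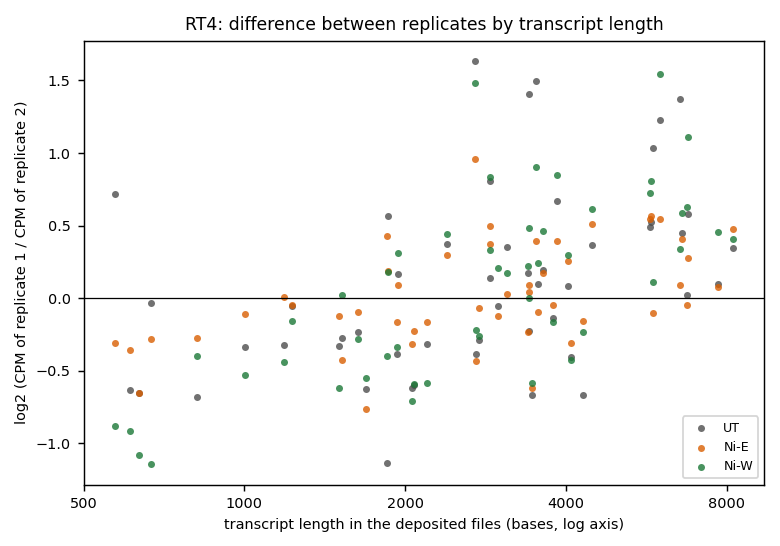
Log2 ratio of the depth-scaled counts (CPM) of replicate 1 to replicate 2 against transcript length (log axis) for the 50 genes, with colours for UT, Ni-E and Ni-W. Short genes tend to lie below 0 and long genes above it, with a rho of 0.63 for the mean ratio.

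Other genes of the interferon pathway were counted as a list of 51, of which 40 passed the expression filter. Of these 40, 2 were called higher in Ni-E and in Ni-W relative to UT, DDX58 and CXCL10, and 0 were called lower. Over all genes, 1.45% were called higher in Ni-E and 0.503% in Ni-W, and 0.71% and 0.0965% lower. DDX58, which encodes the RNA sensor RIG-I, was at 4.22 and 3.66 TPM in UT, 9.60 and 8.96 in Ni-E and 23.1 and 14.9 in Ni-W cells. CXCL10, a chemokine, was at 5.72 and 4.52 TPM in UT, 67.3 and 82.9 in Ni-E and 79.5 and 70.6 in Ni-W. CXCL10 had overlapping Ni-E and Ni-W libraries, with a fitted change of -0.05 ± 0.22 between them.

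None of the 8 interferon ligand genes passed the filter. IFNL1, a type III interferon, was at 0 and 0 TPM in UT, 0.51 and 0.30 in Ni-E and 0.79 and 0.61 in Ni-W cells, and IFNB1 was at 0.18 TPM or less in every library. The 6 receptor genes had fitted changes with medians of 0.09 and 0.27 against UT and none was called. IRF9, the DNA-binding part of the complex with STAT proteins, was at 25.2 and 35.1 TPM in UT, 89.8 and 100.6 in Ni-E and 157 and 185 in Ni-W. Its groups did not overlap, and its fitted changes of 1.62 ± 0.34 and 2.45 ± 0.35 were not called (adjusted p = 0.094 and 0.060, edgeR).

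In BEAS-2B cells, most promoters of the effector genes carried H3K4me3 before nickel. In UT cells 45 of 51 promoters had at least 1 RPKM, against 52.8% of all promoters, and the median of the 51 was 3.51 RPKM. The highest was TRIM25, at 17.2 RPKM in UT, 15.98 in Ni-E and 8.43 in Ni-W cells, above 99.7% of all promoters in UT. IFI27, the gene with the largest rise in Ni-E RT4 cells, was listed at 0 in all 3 BEAS-2B libraries. The next lowest of the 51 promoters, ISG20, had 16 (UT), 25 (Ni-E) and 25 (Ni-W) reads. Whether reads in the IFI27 window could be counted was not tested, so no level is read from its 0. The 19 genes called in RT4 had a median of 2.53 RPKM in UT BEAS-2B cells and the other 32 genes one of 3.98. BEAS-2B expression was not analysed here.

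The H3K4me3 libraries had 28385725 (UT), 37493949 (Ni-E) and 29933551 (Ni-W) reads, and the promoters held 37.6%, 36.0% and 22.9% of them. Levels were therefore compared as ratios after each was divided by the median promoter of its library. The methods name 2 biological replicates for ChIP, and whether the file of each condition pools them is not given in the sources used here. With 1 file per condition there is no test, and intervals cover counting error only. In Ni-E vs UT cells, 0 of 45 promoters with at least 1 RPKM were higher by 1.5-fold and 1 was lower, against 0.847% and 0.567% of all promoters. The median ratio was 1.03, against 1.08 over all promoters. IFITM1 was the lower one, at 1.69 RPKM in UT and 0.933 in Ni-E, a ratio of 0.624 (95% interval 0.502 to 0.776).

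In Ni-W vs UT BEAS-2B cells, 3 of 46 promoters were higher by 1.5-fold and 9 were lower, against 4.36% and 18.4% of all promoters. The median ratio was 0.778, close to the 0.801 of all promoters. CMPK2 had the highest ratio, 5.31 (3.71 to 7.62), with 0.326 RPKM in UT, 0.393 in Ni-E and 1.24 in Ni-W cells. The neighbouring RSAD2 promoter, whose window overlaps that of CMPK2 by the RefSeq starts (the starts used for the files were not compared with these), was at 0.722, 0.560 and 0.626 RPKM, with a ratio of 1.22 (0.888 to 1.66). SAMD9L was at 2.90, 2.46 and 3.55 RPKM, with a ratio of 1.72 (1.49 to 1.98), and SP100 at 3.88, 3.74 and 4.51 RPKM, with a ratio of 1.63 (1.44 to 1.85). Without scaling by the median, the ratios of CMPK2, SAMD9L and SP100 were 3.79, 1.22 and 1.16, so that CMPK2 alone of these 3 stayed past 1.5-fold. With quantile normalization they were 4.52, 2.15 and 2.02, all past 1.5-fold.

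IFITM1 had the lowest ratio for Ni-W vs UT, 0.339 (0.248 to 0.464), with 0.409 RPKM in Ni-W cells, and it was below 1 divided by 1.5 in both contrasts with UT also without scaling (0.552 and 0.242) and with quantile normalization (0.637 and 0.284). In RT4 cells IFITM1 RNA was higher in both nickel groups than in UT cells. RTP4, a chaperone of receptors, followed at 2.23, 1.92 and 0.685 RPKM, a ratio of 0.431 (0.336 to 0.553). MX2 (0.578) and OASL (0.595), both called in Ni-W RT4 cells, and UBE2L6 (0.611) were the next lowest. The GBP promoters had ratios of 1.14 to 1.43, all above 1, and the 4 OAS promoters 0.595 to 0.731. Without scaling, GBP2 was at a ratio of 1.02 and GBP1 and GBP3 were below 1, at 0.813 and 0.948. With quantile normalization GBP1, GBP2 and GBP3 were at 1.44, 1.43 and 1.64. Of the 18 genes called in RT4 with a ratio, 4 were above 1 for Ni-W vs UT, as were 9 of the other 32. Among promoters with at least 1 RPKM in either library, 23.9% of these genes and 21.8% of all promoters had a ratio above 1.

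For Ni-W vs Ni-E BEAS-2B cells, 3 of 45 promoters were higher by 1.5-fold and 10 lower, against 4.04% and 30.5% of all promoters, with a median ratio of 0.763 against 0.750. The 3 were CMPK2 (3.90), GBP2 (1.80) and SAMD9L (1.79). The chromatin dynamic score of the study subtracts the square roots of the median-scaled levels. Its median over the 51 genes was 0.04 in Ni-E relative to UT, -0.14 in Ni-W relative to UT and -0.17 in Ni-W relative to Ni-E cells. Over all promoters it was 0.05, -0.03 and -0.07. At an equal ratio the score is larger in size where the level is higher. In UT cells 45 of the 51 promoters but 52.8% of all had at least 1 RPKM, so these medians do not compare promoters of equal level. Among promoters with at least 1 RPKM in either library, the median ratio for Ni-W vs UT was 0.778 in these genes and 0.801 in all.

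**Figure D5:**
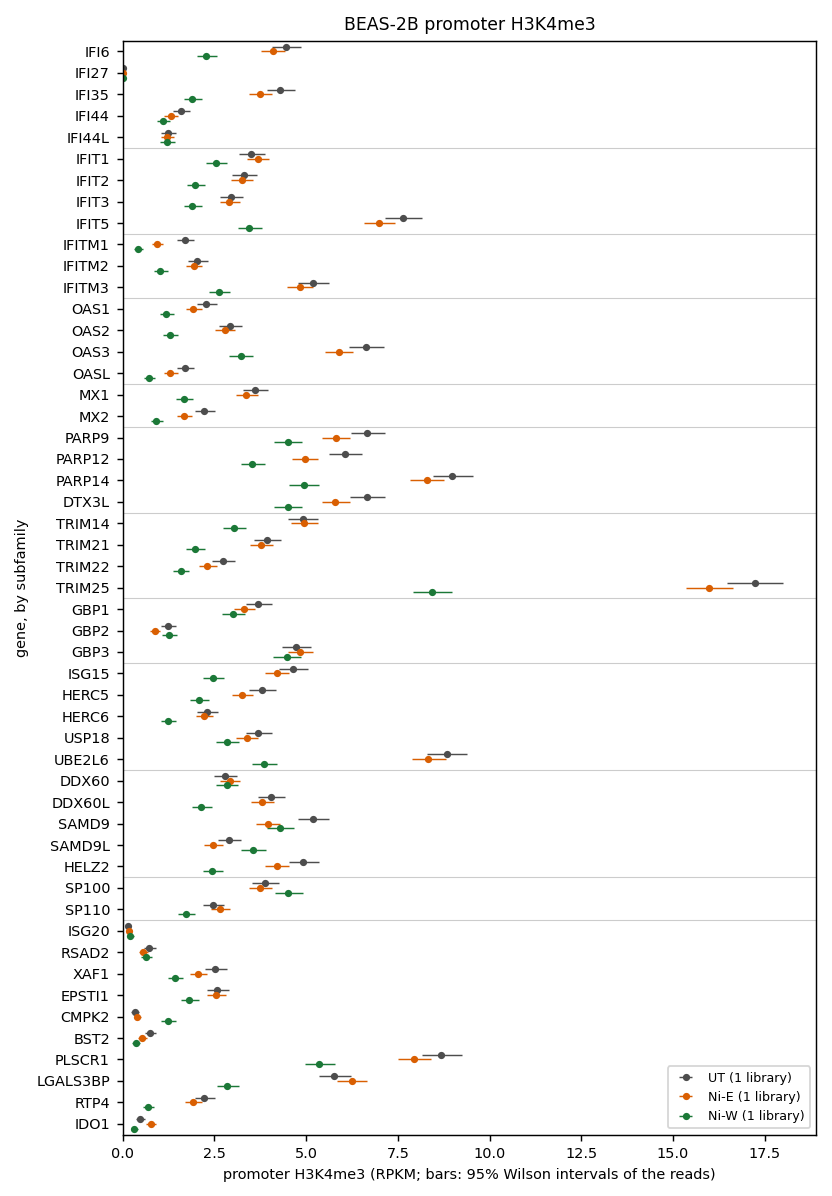
Promoter H3K4me3 (RPKM) of the 51 genes in the UT, Ni-E and Ni-W BEAS-2B libraries, 1 library each, with 95% Wilson intervals of the reads. Ni-W levels are below UT levels for most genes before any scaling, and CMPK2, SAMD9L and SP100 are among the exceptions.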

How the data were processed

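RNA-Seq of RT4 cells (3 groups, 2 libraries each) and H3K4me3 ChIP-Seq of BEAS-2B cells (3 conditions, 1 library each) were analysed; ChIP input libraries held no table used here. The RNA-Seq tables that the authors deposited came from RSEM and list estimated counts, TPM and FPKM of 28252 genes. The methods describe STAR alignment to hg19, and whether the estimated counts came from it is not given in the sources used here. Estimated counts were rounded and tested with edgeR 4.0.16 (quasi-likelihood, TMM factors, expression filter, 3 groups in 1 model, no block), with Benjamini-Hochberg adjustment over 14502 genes. A gene was called at 1.5-fold or more and an adjusted p below 0.05. Deposited TPM values served for levels and for limma 3.58.1 on log2(TPM + 1); deposited FPKM values were not used. TPM is per length, so levels can be compared between genes. The methods name biological replicates, and the labels say only that 1 library of each pair is a duplicate.

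The ChIP-Seq files that the authors deposited give the RPKM of each promoter, 2 kb on each side of the start, from BWA alignments to hg38 without redundant copies of reads. Reads were recovered from the steps of the RPKM values (tolerance 0.0011 RPKM, 100.0% of values whole), with 95% Wilson intervals that cover counting error only.

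The members, lists and tests were chosen with earlier results of these data known. Values in every library are given for each called member and for the most abundant member of each subfamily without a call; other members were named after their values were seen. Alternatives were DESeq2 1.42.0, RLE size factors, other filters, a replicate block, only the groups compared, each library left out and, for H3K4me3, other scalings and minimums. Some genes of the pathway and marker lists are not reported here. Scripts were tested on simulated data. Python 3.11.15 and R 4.3.3 were used.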

Additional observations from a re-analysis of the deposited data

How the results depend on the processing

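Across 14 settings of the RT4 test, the number of effector genes called was 0 to 33 in Ni-E against UT, 0 to 46 in Ni-W against UT and 0 to 40 in Ni-W against Ni-E cells, and no setting called any of them lower. For Ni-E vs UT, 33 genes were called with the replicate block and 10 with limma on log2(TPM + 1). Over all genes, these settings called 1833 and 177, against 314 in the main test. For Ni-W vs UT, 46 were called with the block, 44 with DESeq2 and 0 with only the UT and Ni-W libraries. Ni-W against Ni-E gave 40 with the block and 8 with DESeq2. Over all genes, DESeq2 called 342 higher and 100 lower in Ni-W against UT, and 89 higher and 50 lower in Ni-W against Ni-E cells. The block counts over all genes are not given for these contrasts, so its member counts are a description only. Leaving out 1 library gave 0 to 16 calls in Ni-E against UT. It gave 0 to 12 in Ni-W against UT and 0 in Ni-W against Ni-E cells. The 16 came only from leaving out either Ni-W library, which is not part of Ni-E against UT. Over all genes, 320 (without Ni-W replicate 1) and 315 (without Ni-W replicate 2) were then called. Without a UT or Ni-E library, fewer effector genes were called in this contrast. A group then holds a lone library, assumed to vary like the other groups, so such counts are a description only. The replicate numbers come only from a suffix in the labels, with 2 pairs per contrast, and were not taken to pair the samples, although the deviations of equally numbered libraries had correlations of 0.657, 0.764 and 0.689 over 14502 genes.

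The median log2 fold change for Ni-E vs UT was 0.76 with DESeq2, 0.76 without a filter, 0.75 with at least 10 counts in every library, 0.80 with the replicate block, 0.72 with limma and 0.77 to 0.96 with a library left out. For Ni-W vs UT it was 1.66 with at least 10 counts, 1.71 with limma and 1.71 to 1.87 with a library left out. Among the genes named by rule, GBP2 changed direction for Ni-W vs UT, to -0.06 without UT replicate 1 and -0.10 without Ni-W replicate 2, within a range of -0.10 to 0.34 over the libraries left out. The cause of these changes was not tested.

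For H3K4me3, with no scaling beyond RPKM, 1 of 46 promoters was past 1.5-fold higher and 30 lower in Ni-W against UT. Over all promoters the shares were 1.86% and 71.2%. In Ni-W against Ni-E cells 1 of 45 was higher and 26 lower, against 2.26% and 64.2% of all promoters. With quantile normalization 5 were higher and 5 lower in Ni-W against UT, against 8.09% and 5.28% of all promoters. In Ni-W against Ni-E cells 7 were higher and 5 lower, against 8.02% and 5.82%. With at least 3 RPKM, 0 were lower in Ni-E against UT, 4 lower in Ni-W against UT and 1 higher in Ni-W against Ni-E cells. The shares over all promoters at this minimum are not given here, so these counts are a description only. In Ni-E against UT, the median score was -0.101 without scaling, -0.0233 with quantile normalization and 0.0029 as a log2 ratio of (RPKM + 1). In Ni-W against UT it was -0.418, -0.0512 and -0.277 in that order, and -0.170 for promoters of at least 1 RPKM in any library. In Ni-W against Ni-E it was -0.328, -0.0324 and -0.256. Over all promoters, whose median level was lower, the median score without scaling was -0.0168, -0.193 and -0.181 in these 3 contrasts. With quantile normalization it was 0.0, -0.0133 and -0.0135. Without replicates, the depth of the ChIP-Seq libraries limits only the counting error of a single promoter.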
